A study of Mus musculus with 32 samples.

Results

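The genes described here are the interleukins, the secreted proteins through which leukocytes and tissue cells signal to each other, and their receptors, with the antagonists and binding proteins that carry an interleukin name. They were chosen by symbol, as every gene whose symbol begins with *Il* and a digit, which gave 84 of the 24646 genes measured. Chains and partners with other names, such as *Csf2rb2* or *Ebi3*, are outside this rule and are described apart. The tissues were the liver, the epididymal and inguinal depots of white fat (eWAT and iWAT) and brown fat (BAT), each taken from 4 *Gpr146* knockout mice (KO) and 4 wild-type littermates (WT). Mice are numbered 1 to 4 per genotype in every tissue, and the labels do not state whether a number is the same mouse throughout. *Gpr146* encodes an orphan G protein-coupled receptor, and the knockout was a whole-body CRISPR deletion on the C57BL/6J background, bred from heterozygous parents. All mice of both genotypes were male and 20 weeks of age, had been on high fat feed (HFD) for 3 months and were fasted overnight before the tissues were taken, so that there is no lean or fed group. Each mouse and tissue gave 1 Affymetrix Mouse Gene 2.1 ST array (32 arrays), whose probes lie along the exons of a gene.

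Values are log2 expression values as deposited, where a difference of 1 is a 2-fold change. Each tissue was normalized in a table of its own, so that genotypes were compared only within a tissue. The titles of the 4 KO liver samples name both genotypes, whereas their genotype, source and description fields say knockout. *Gpr146* itself was below every WT array on every KO array in each tissue, with log2 fold changes of -1.77 in liver, -1.53 in eWAT, -1.55 in iWAT and -1.16 in BAT. The tissue labels fitted their markers, as the mean of 5 hepatocyte genes was at least 9.88 in liver and at most 3.47 elsewhere, and the mean of 4 brown adipocyte genes was at least 7.67 in BAT and at most 4.22 elsewhere. On 3 iWAT arrays (WT 1, WT 2 and KO 2) the mean of 6 B cell genes was between 7.43 and 7.80, against 3.15 to 5.69 on the other 5. On 3 BAT arrays (WT 2, WT 3 and KO 2) the mean of 4 skeletal muscle genes was between 6.53 and 7.68, against 2.88 to 3.89 on the rest. In eWAT, KO 2 was the KO array nearest to the WT arrays, with a mean over the 34 members that were not dim of 0.23 below the WT mean, against 0.50 to 0.63 on the other KO arrays.

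Interleukins act at low concentrations, and many are made by few cells of a tissue, whereas their receptors mark the cells that can answer. Many of the receptors share chains. The common gamma chain *Il2rg* serves the receptors of IL-2, IL-4, IL-7, IL-9, IL-15 and IL-21, gp130 (*Il6st*) those of IL-6, IL-11 and IL-27, and *Il10rb* those of IL-10, IL-22 and the lambda interferons. The IL-1 family (IL-1, IL-18, IL-33 and IL-36) signals instead through receptors that recruit MyD88, and it is held in check by an antagonist (*Il1rn*), a decoy receptor (*Il1r2*) and a binding protein (*Il18bp*). In obese visceral fat, macrophages and other leukocytes are a known source of both the ligands and the receptors.

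Of the 84 genes, 35 were dim in all 4 tissues, where dim means a mean over the 8 arrays of a tissue below the median gene of that tissue. The ligands *Il2*, *Il4*, *Il5*, *Il6*, *Il7*, *Il9*, *Il10*, *Il13* and *Il17a* were among them. The other 49 were above it in at least 1 tissue, 20 of them in all 4, and most of those 20 are receptors (*Il4ra*, *Il6ra*, *Il6st*, *Il10ra*, *Il10rb*, *Il13ra1*, *Il15ra*, *Il17ra* and *Il1r1* among them). By tissue, 31 were not dim in liver, 34 in eWAT, 36 in iWAT and 26 in BAT. Among the members, *Il11ra1* and *Il11ra2*, and likewise *Il28a* and *Il28b*, are near-identical copies whose probes may share signal, so that their values are uncertain.

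KO and WT mice were compared in each tissue with limma, which fits a linear model to each gene and steadies its variance with those of all the others, with the Benjamini-Hochberg method over 24646 genes and a threshold of 0.05 on the adjusted p. In eWAT 13 of the 84 genes passed, and all 13 were lower in KO mice. That is 15.5% of the members, where 15.2% of all genes passed in either direction and 10.7% passed as lower. All 13 were among the 34 that were not dim, of which they made 38.2%, where 20.1% of all genes that were not dim passed as lower. Because the mean that defines dim covers both groups, a gene can pass on its WT values alone, as *Il1rl1* did in eWAT (WT mean 4.05, KO mean 2.88, median gene 3.16), so that the share among genes that were not dim is a description only. In liver 1 member passed (background 0.661%), in iWAT 0 (background 0%) and in BAT 0 (background 0.0284%). *Gpr146* itself passed in liver (adjusted p = 6.55e-06) and eWAT (0.00823) but not in iWAT (0.221) or BAT (0.0727, all limma). A count of 0 in iWAT or BAT therefore does not show that the members were unchanged there. Without adjustment, p was below 0.05 for 12 of the 84 members in liver, 22 in eWAT, 9 in iWAT and 11 in BAT. Of all 24646 genes it was so for 3271 in liver, 7338 in eWAT, 3803 in iWAT and 3127 in BAT. The share of members was thus below that of all genes in eWAT and iWAT and near it in liver and BAT. The plot of changes by tissue shows the named genes side by side.

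**Figure D1:**
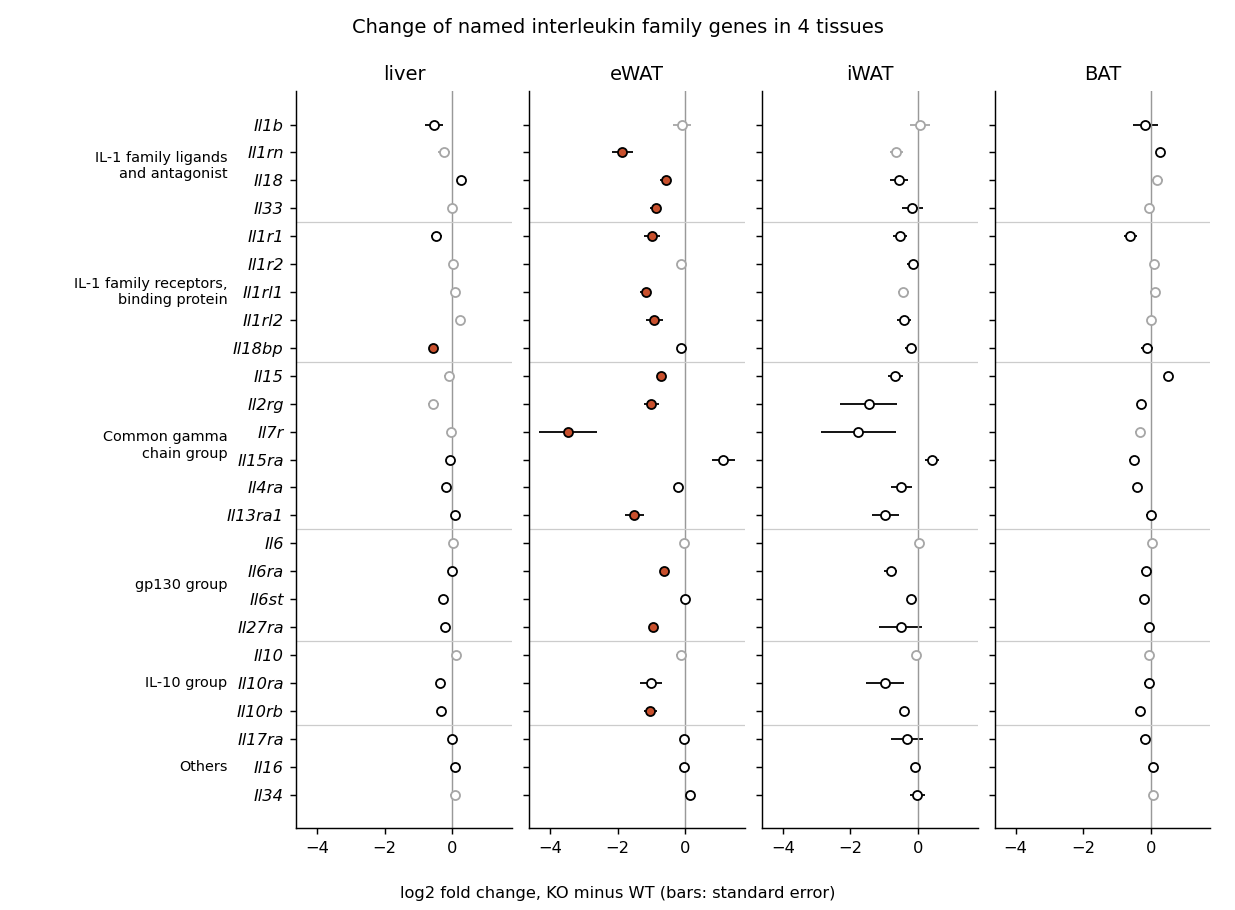
Log2 fold change (KO minus WT, x axis) of 25 interleukin family genes in each tissue, grouped by role, with the standard error as a bar (hidden where it is shorter than the symbol). Filled symbols passed the threshold (limma, adjusted p below 0.05) and grey symbols are dim in that tissue. Filled symbols appear in eWAT, all below 0, with *Il7r* farthest at -3.47, and once in liver, for *Il18bp* at -0.56.

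The 13 genes that fell in eWAT were 9 of the 42 receptor genes and 4 of the 42 ligands, antagonists and binding proteins. Not dim in eWAT were 22 of the receptor genes and 12 of the ligands, antagonists and binding proteins, and all 13 were among these. Of all genes that were not dim, 20.1% passed as lower. By family the 13 were 6 of the 20 IL-1 family genes, 4 of the 17 genes of the common gamma chain and IL-13 group, 2 of the 10 genes of the gp130 group and 1 of the 14 genes of the IL-10 and lambda interferon group. In the same order, 7, 8, 6 and 4 genes of these families were not dim in eWAT. None of the 11 IL-17 ligands and receptors, the 6 IL-12 family genes or the 4 genes of the common beta chain group passed. In eWAT only 6 of the IL-17 genes, 0 of the IL-12 family and 1 of the common beta chain group were not dim. The median log2 fold change in eWAT was -0.05 over the 84 members and 0.03 over all genes. Over the members that were not dim it was -0.22, and over all genes that were not dim it was -0.08. All KO values lay below all WT values for 14 of these 34 members (23.8% of all genes that were not dim did so), and for 0 members did they all lie above.

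The largest fall was in *Il7r*, the IL-7 receptor alpha chain that lymphocytes need for survival and that some myeloid cells carry. It measured 8.29, 8.03, 8.47 and 8.49 on the WT eWAT arrays and 3.34, 7.82, 5.06 and 3.19 on the KO arrays. Every KO array was below every WT array, KO 2 by 0.21 from the lowest of them, and the KO arrays spread over 4.63 log2 units against 0.46 for the WT arrays. The group means were 8.32 ± 0.21 in WT and 4.85 ± 2.15 in KO mice (SD, n = 4 each), which is a fall by 3.47 with a standard error of 0.86 (adjusted p = 0.0267, limma), or 11.1-fold. The shared partner *Il2rg* measured 7.13, 6.92, 7.55 and 7.11 on the WT arrays and 5.79, 6.62, 6.57 and 5.73 on the KO arrays, a log2 fold change of -1.0 ± 0.23 (SE, adjusted p = 0.0195, limma). *Il13ra1*, which binds IL-13 and with *Il4ra* forms the receptor for IL-4 and IL-13 outside the lymphocyte lineage, was between 5.54 and 5.80 on the WT arrays and measured 3.51, 5.07, 4.08 and 3.79 on the KO arrays, a fall of 1.5 (adjusted p = 0.0120, limma). Its partner *Il4ra* had a log2 fold change of -0.22 (adjusted p = 0.202, limma), with overlapping groups.

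In the IL-1 family, the antagonist *Il1rn* and the ligands *Il33* and *Il18* fell. *Il1rn*, which occupies the IL-1 receptor without signalling, measured 5.27, 5.84, 5.4 and 5.56 on the WT eWAT arrays and 3.23, 4.72, 3.24 and 3.45 on the KO arrays. The groups were apart by 0.55 at their nearest, with KO 2 again closest, and the log2 fold change was -1.86 ± 0.31 (SE, adjusted p = 0.00981, limma), or 3.63-fold. *Il33*, an alarmin that stromal and mesothelial cells store in the nucleus, measured 4.39, 4.38, 4.17 and 4.51 against 3.64, 3.84, 3.50 and 3.01, a log2 fold change of -0.87 (adjusted p = 0.0118, limma). *Il18*, which the inflammasome processes, was between 5.01 and 5.61 on the WT arrays and between 4.48 and 4.99 on the KO arrays, a fall of 0.57 (adjusted p = 0.0392, limma). *Il1b*, the main agonist of the IL-1 receptor, was dim in eWAT and measured 2.97, 2.90, 3.67 and 2.70 in WT and 2.50, 2.79, 2.86 and 3.75 in KO mice, so that the groups overlapped (log2 fold change -0.09, adjusted p = 0.866, limma).

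Of the receptors of this family, *Il1rl1*, *Il1r1* and *Il1rl2* fell. *Il1rl1*, the receptor of IL-33 (ST2), carried by mast cells, type 2 innate lymphoid cells and regulatory T cells, measured 3.96, 4.11, 4.10 and 4.01 on the WT arrays and 2.84, 3.36, 2.82 and 2.51 on the KO arrays. The groups were apart by 0.60 at their nearest, and the log2 fold change was -1.17 ± 0.16 (SE, adjusted p = 0.00763, limma). *Il1r1*, the signalling receptor of IL-1, measured 7.10, 7.37, 7.04 and 7.12 against 6.29, 6.89, 5.63 and 5.86, a log2 fold change of -0.99 (adjusted p = 0.0234, limma). *Il1rl2*, the IL-36 receptor, was between 4.49 and 5.34 in WT and between 3.38 and 4.45 in KO mice, a fall of 0.91 (adjusted p = 0.0366, limma). The decoy *Il1r2* was dim, at 2.41 to 2.93 in WT and 2.39 to 2.57 in KO mice, and the binding protein *Il18bp* had a log2 fold change of -0.11 (adjusted p = 0.463, limma).

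Of the other families, *Il27ra*, the receptor chain specific to IL-27, had the smallest adjusted p of the 84 genes in eWAT. It measured 5.19, 5.22, 5.18 and 5.11 on the WT arrays and 4.28, 4.38, 4.36 and 3.92 on the KO arrays, a log2 fold change of -0.94 ± 0.11 (SE, adjusted p = 0.00566, limma). Both groups were tight, and KO 2 sat with the other KO arrays. *Il6ra*, the chain that binds IL-6, measured 7.42, 7.18, 7.47 and 7.39 against 6.78, 7.03, 6.55 and 6.64, a log2 fold change of -0.62 (adjusted p = 0.0117, limma). The signal transducer *Il6st* was between 9.05 and 9.15 in WT and between 8.80 and 9.32 in KO mice, with a log2 change of 0.01 (adjusted p = 0.969, limma). *Il10rb* measured 8.20, 8.29, 8.29 and 8.34 against 7.20, 7.92, 7.14 and 6.76, a log2 fold change of -1.03 (adjusted p = 0.0135, limma). Its partner *Il10ra*, the chain specific to IL-10 and found mainly on leukocytes, was 4.51, 4.95 and 4.2 on KO 1, KO 3 and KO 4 but 5.97 on KO 2, inside the WT range of 5.79 to 6.23, and did not pass (log2 fold change -1.0, adjusted p = 0.0689, limma).

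**Figure D2:**
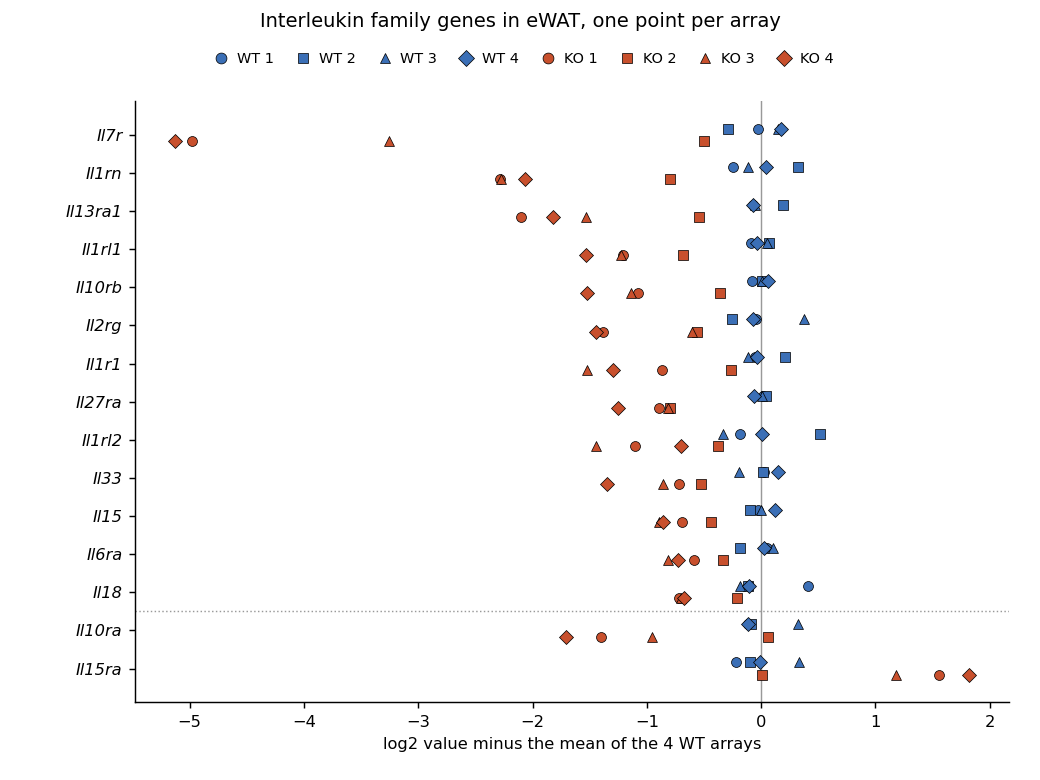
Value of each eWAT array minus the mean of the 4 WT arrays (log2, x axis) for the 13 genes past the threshold, ordered by log2 fold change, and below the dotted line for *Il10ra* and *Il15ra*, which did not pass. WT arrays are blue and KO arrays red, with 1 symbol shape per mouse number within a genotype. KO 2 (red squares) is the highest KO array for all 13 genes and lies within the WT range for *Il10ra* and *Il15ra*.

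KO 2 was the highest of the 4 KO arrays for all 13 genes, and how far it had moved differed between them. Relative to the WT mean, *Il7r* fell by 0.50 on KO 2 and by a mean of 4.46 on the other 3 KO arrays, which leaves KO 2 at 11.3% of their shift. For *Il1r1* that share was 21.5%, for *Il10rb* 29.0% and for *Il1rn* 36.0%. For *Il15*, *Il1rl1* and *Il33* it was 52.9%, 52.1% and 53.7%, and for *Il27ra* 80.5%. *Gpr146* was not part of this pattern, as KO 2 was its lowest eWAT array at 3.63.

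Macrophage genes moved on the same arrays. The mean of 7 macrophage markers (*Emr1*, *Cd68*, *Csf1r*, *Itgam*, *Lyz2*, *Mrc1* and *Cd163*) was between 8.64 and 8.78 on the WT eWAT arrays and 6.43, 8.49, 7.15 and 6.67 on KO 1 to KO 4, and 6 of the 7 fell past the threshold. The mean of 6 genes of lipid-laden macrophages (*Trem2*, *Gpnmb*, *Cd9*, *Lpl*, *Itgax* and *Atp6v0d2*) was between 8.63 and 8.76 in WT and between 5.62 and 8.33 in KO mice, and 5 of the 6 fell. Of 4 mast cell genes 2 fell (list mean 4.18 to 5.31 in WT, 3.03 to 4.06 in KO), and of 4 mesothelial genes 2 fell (4.34 to 5.95 in WT, 4.01 to 4.26 in KO). The T cell list had a mean of 2.77 to 3.33 in WT and 2.86 to 3.51 in KO mice, with 5 of its 7 genes dim and 0 past the threshold, so that most of them had little room to fall. The B cell list had a mean of 2.49 to 2.66 in WT and of 2.87, 2.48, 4.11 and 2.61 on KO 1 to KO 4. Of its 6 genes 2 were not dim and 0 were past the threshold. KO 3 was the highest eWAT array for both lists. Of 5 adipocyte genes *Adipoq*, *Plin1*, *Fabp4* and *Cidec* rose and *Lep* fell (list mean 9.73 to 9.79 in WT, 9.78 to 10.1 in KO). Single genes of lists that were otherwise not past the threshold moved too, the NK cell gene *Ncr1* (-0.76, adjusted p = 0.0121) and the eosinophil gene *Ccr3* (-1.0, adjusted p = 0.00987) down and the dendritic cell gene *Zbtb46* up (0.41, adjusted p = 0.0383, limma), the NK cell and eosinophil lists being dim throughout. In RNA from whole tissue, fewer cells of a type and less RNA per cell cannot be told apart, and the part of these cell types in the falls was not tested.

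**Figure D3:**
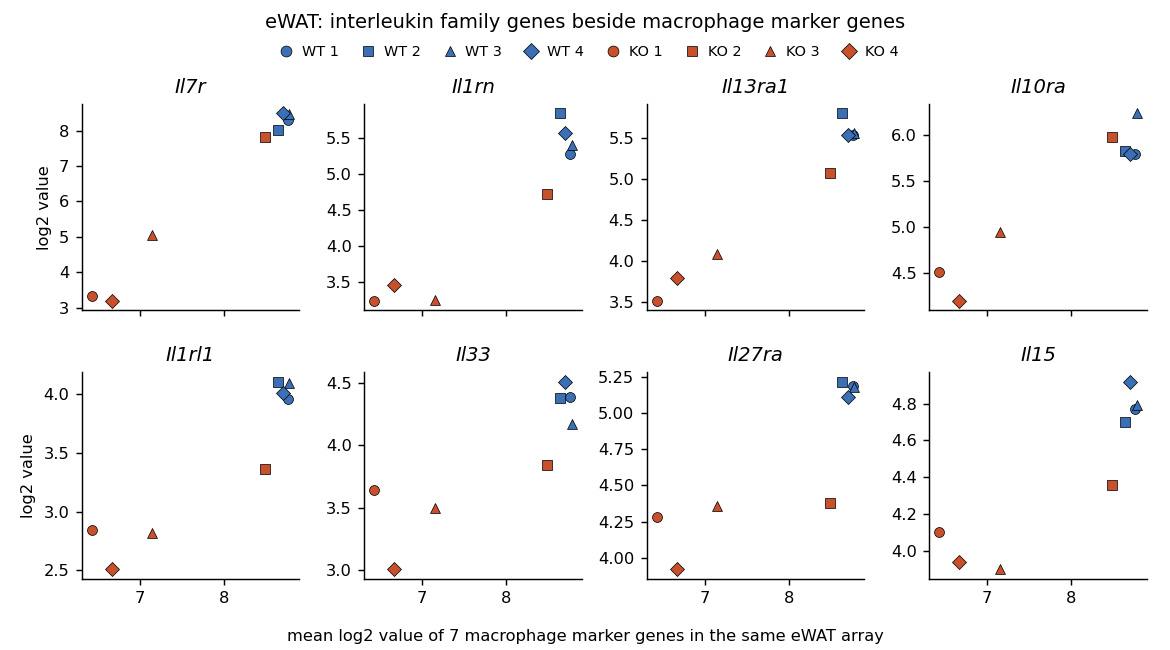
Log2 value of 8 interleukin family genes (y axes) against the mean log2 value of 7 macrophage marker genes (x axis) on the same 8 eWAT arrays. On KO 2 the marker mean (8.49) is near the WT range (8.64 to 8.78). *Il7r* and *Il10ra* are near or inside their WT range there, whereas *Il27ra* is at 4.38, close to the other KO arrays.

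*Il7r*, *Il33* and *Il1rl1* are shown with the sequence around a transcription start, the first as the largest fall and the others as a ligand and its receptor that both fell. The windows run from 250 bases before to 50 bases after a start (RefSeq, GRCm38.p6), and capitals mark matches to the STAT site TTCNNNGAA, in which N is any base, or to the PU.1 core GAGGAA or its reverse complement. Il7r, minus strand of chr15:9529827-9530126, with 1 STAT site:
Il7r: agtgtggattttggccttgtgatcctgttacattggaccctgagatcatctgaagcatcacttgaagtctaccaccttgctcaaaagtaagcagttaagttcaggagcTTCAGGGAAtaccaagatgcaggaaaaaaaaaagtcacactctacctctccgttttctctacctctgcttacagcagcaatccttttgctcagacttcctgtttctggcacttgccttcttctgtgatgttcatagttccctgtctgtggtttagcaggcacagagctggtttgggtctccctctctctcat
Il1rl1, plus strand of chr1:40429320-40429619, with 1 PU.1 core:
Il1rl1: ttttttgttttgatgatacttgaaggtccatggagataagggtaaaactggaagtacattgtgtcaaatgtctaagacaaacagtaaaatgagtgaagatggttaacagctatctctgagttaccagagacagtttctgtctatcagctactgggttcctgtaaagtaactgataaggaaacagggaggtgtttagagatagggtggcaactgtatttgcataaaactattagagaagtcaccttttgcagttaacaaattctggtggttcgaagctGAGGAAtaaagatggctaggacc
Il33, plus strand of chr19:29924863-29925162, with 2 adjoining PU.1 cores:
Il33: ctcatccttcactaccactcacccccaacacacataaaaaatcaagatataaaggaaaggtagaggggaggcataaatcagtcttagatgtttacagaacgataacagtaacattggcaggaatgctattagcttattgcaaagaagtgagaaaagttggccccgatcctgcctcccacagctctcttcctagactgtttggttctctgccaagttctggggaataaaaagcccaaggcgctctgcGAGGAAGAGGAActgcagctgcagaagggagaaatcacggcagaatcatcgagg
Among 32851 such windows of all genes, 8.3% held a STAT site and 28.3% a PU.1 core on either strand, and the share with an NF-kappaB site was 8.46%. Of the members, 67 had windows, 82 in all, of which 12.2% held a STAT site, 31.7% a PU.1 core and 9.76% an NF-kappaB site. For the genes that fell in eWAT there were 15 windows of 10 genes, of which 1 held a STAT site, 3 a PU.1 core and 1 an NF-kappaB site. *Il1rl1* and *Il33* each have another window, not printed, that held none of the 3 motifs. A match of letters describes the window and is not a measured binding site.

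Of the 13 falls, 8 were past the threshold whichever of the 8 eWAT arrays was left out (*Il1rn*, *Il13ra1*, *Il1rl1*, *Il10rb*, *Il27ra*, *Il33*, *Il15* and *Il6ra*), with an adjusted p of at most 0.0462. *Il7r* lost its call without any 1 array other than KO 2 (adjusted p between 0.0521 and 0.0743), as did *Il18* (0.0569 to 0.0957) and *Il1rl2* (0.0503 to 0.0977). *Il1r1* lost it without KO 1, KO 4 or any WT array (0.0502 to 0.0742), and *Il2rg* without KO 1 (0.0516), KO 4 (0.0510), WT 3 (0.0544) or WT 4 (0.0536). Without KO 2, 21 members passed (22% of all genes did), among them all 13, and *Il10ra* (-1.35, adjusted p = 0.000741, limma) and *Il15ra* (1.52, adjusted p = 0.000286, limma) joined them. With array weights 20 members passed (21.5% of all genes did).

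*Il15* and *Il15ra* changed differently in eWAT and BAT, whereas between eWAT and iWAT the difference passed for neither gene. IL-15 is a growth factor of natural killer cells and memory T cells that is held and presented by its receptor alpha chain, *Il15ra*. In eWAT *Il15* measured 4.77, 4.70, 4.79 and 4.92 on the WT arrays and 4.10, 4.36, 3.90 and 3.94 on the KO arrays, a log2 fold change of -0.72 ± 0.11 (SE, adjusted p = 0.00877, limma), with no overlap. *Il15ra* measured 5.22, 5.34, 5.77 and 5.43 against 7.0, 5.45, 6.62 and 7.26. On KO 1, KO 3 and KO 4 it was above every WT value and on KO 2 within the WT range, and the log2 fold change of 1.14 (standard error 0.34) missed the threshold with all arrays (adjusted p = 0.0502, limma). It passed with array weights (1.39, adjusted p = 0.00470), quantile normalization (1.31, 0.0380), equal array medians (1.15, 0.0487), a trended and robust prior (0.0462), the replicate number as a block (0.0467) and dim genes left out (0.0324), but in none of the fits that left out an array other than KO 2.

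In BAT both genes lay the other way. *Il15* measured 4.50, 4.2, 4.16 and 4.57 on the WT arrays and 4.65, 4.97, 5.14 and 4.80 on the KO arrays, so that every KO value was above every WT value (log2 fold change 0.53, standard error 0.13), but it did not pass (adjusted p = 0.150, limma). *Il15ra* measured 7.22, 7.44, 7.26 and 7.54 against 6.97, 6.47, 7.0 and 7.07, every KO value below every WT value (log2 fold change -0.49, adjusted p = 0.178, limma). In iWAT the signs were those of eWAT, -0.67 for *Il15* (adjusted p = 0.246) and 0.42 for *Il15ra* (adjusted p = 0.355, limma), with overlapping groups. The difference of the change between eWAT and BAT passed for both genes, at -1.25 for *Il15* (adjusted p = 0.00226, limma) and at 1.63 for *Il15ra* (adjusted p = 0.0182, limma). Without the 3 BAT arrays high in muscle genes, the BAT log2 fold change of *Il15* was 0.33 (adjusted p = 0.743, limma) and that of *Il15ra* -0.37 (adjusted p = 0.666, limma). The difference between eWAT and BAT was not refitted without these arrays.

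**Figure D4:**
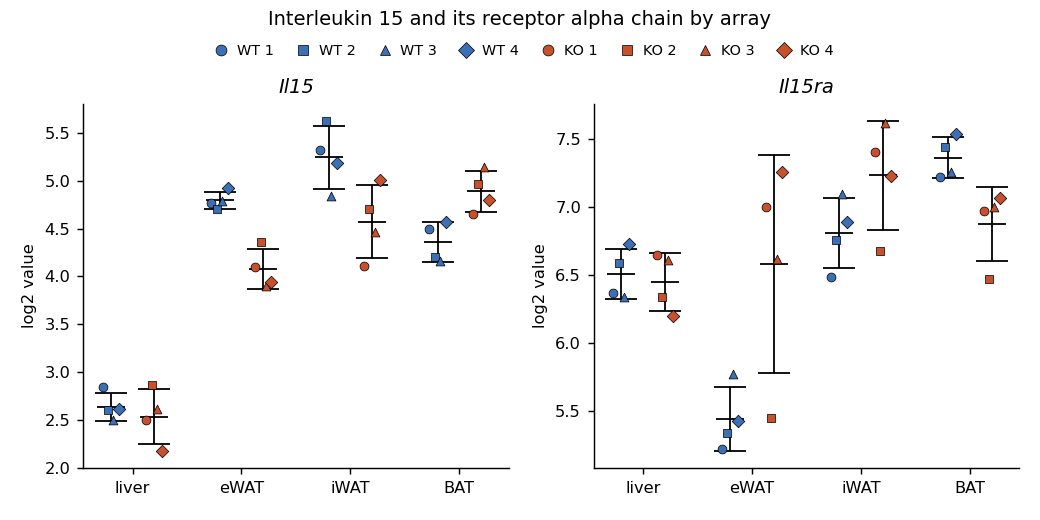
Log2 values of *Il15* (left) and *Il15ra* (right) on each array in 4 tissues, WT in blue and KO in red, with the mean and SD of 4 mice as bars. Levels are comparable within a tissue only, as each tissue was normalized in its own table. In eWAT *Il15* is lower on all KO arrays and *Il15ra* higher on 3 of 4, and in BAT both lie the other way.

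Whether the changes in eWAT differed from those in the other tissues was tested as a difference of the 2 log2 fold changes, with the mouse as a random block. Against liver, 10 of the 84 members differed (8.76% of all genes did), all with the lower value in eWAT. They were *Il7r* (-3.44, adjusted p = 0.0294), *Il1rn* (-1.62, 0.0149), *Il13ra1* (-1.59, 0.00912), *Il1rl1* (-1.26, 0.00316), *Il1rl2* (-1.15, 0.0167), *Il33* (-0.87, 0.0105), *Il18* (-0.84, 0.0204), *Il27ra* (-0.74, 0.00736), *Il15* (-0.62, 0.0443) and *Il6ra* (-0.60, 0.0428, all limma). Of these, *Il7r*, *Il1rn*, *Il1rl1*, *Il1rl2*, *Il33* and *Il15* were dim in liver. Against BAT, 8 members differed (6.93% of all genes did), 7 with the lower value in eWAT and *Il15ra* with the higher. The 5 largest of the 7 were *Il7r* (-3.15, 0.0481), *Il1rn* (-2.14, 0.00389), *Il13ra1* (-1.50, 0.0144), *Il1rl1* (-1.29, 0.00526) and *Il15*, followed by *Il27ra* (-0.88, 0.00389) and *Il33* (-0.83, 0.0208, all limma), and *Il7r*, *Il1rl1* and *Il33* were dim in BAT. Some of these calls depended on single arrays. Against BAT, *Il7r* lost its call in 15 of the 16 fits that left out 1 array (adjusted p between 0.0663 and 0.0996, limma), all but that without eWAT KO 2, and under equal array medians, quantile normalization, the trended and robust prior and no block (0.0534 to 0.0916). Against liver, *Il7r* lost it in 9 of 16 (without eWAT KO 1, KO 4, WT 3 or WT 4, or liver KO 1, KO 4, WT 1, WT 2 or WT 3, 0.0501 to 0.0590) and under the trended and robust prior (0.0562). *Il15* lost its liver call in all but the fits without eWAT KO 2, liver KO 4 or liver WT 1 (0.0624 to 0.0919), and *Il6ra* in all but those without eWAT KO 2, eWAT WT 2 or liver WT 1 (0.0593 to 0.0857), and both lost it under equal array medians and quantile normalization (0.0610 to 0.120). The other 14 differences were past the threshold in each of these fits. Without eWAT KO 2 the counts were 17 against liver and 17 against BAT. The share of all genes was not counted in these fits, so that the rise cannot be read as particular to the members. In the eWAT comparison itself, leaving out KO 2 took the share of all genes from 15.2% to 22%.

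Against iWAT 0 members differed (0.0243% of all genes did, limma), with 7 at an unadjusted p below 0.05. Without eWAT KO 2 there were 3, *Il10rb*, *Il1rl1* and *Il1rn*. The shares of all genes that go with the 7 and the 3 were not counted. The 13 genes that fell in eWAT had negative log2 fold changes in iWAT for all 13 (median -0.56, from -1.76 to -0.16), against 8 of 13 in liver (median -0.03) and 7 of 13 in BAT (median -0.04). Of the 2475 genes that were not dim and fell in eWAT, 92.8% were below 0 in iWAT, 71.5% in liver and 74.4% in BAT, so that the members' count in iWAT was near that of other genes that fell in eWAT. Without the 3 iWAT arrays high in B cell genes 11 of the 13 were below 0, with *Il27ra* at 0.20 and *Il33* at 0.14. No p was computed for these counts.

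In iWAT no member passed the threshold, and the receptors of the common gamma chain group spread most. *Il7r* measured 7.79, 8.18, 4.48 and 5.43 on the WT arrays and 3.00, 7.46, 3.51 and 4.89 on the KO arrays (log2 fold change -1.76, standard error 1.1, adjusted p = 0.440, limma). *Il2rg* measured 9.31, 9.32, 7.54 and 7.15 against 5.52, 9.19, 5.50 and 7.25 (-1.46, adjusted p = 0.417, limma). The high values of both genes were on WT 1, WT 2 and KO 2, the arrays on which the B cell genes were high, and the T cell list had means of 6.75, 7.14 and 6.93 there against 3.39 to 4.39 on the other 5. *Il10ra*, *Il17ra*, *Il4ra* and *Il13ra1* were also highest on these 3 arrays. The part of lymphocytes in these values was not tested.

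**Figure D5:**
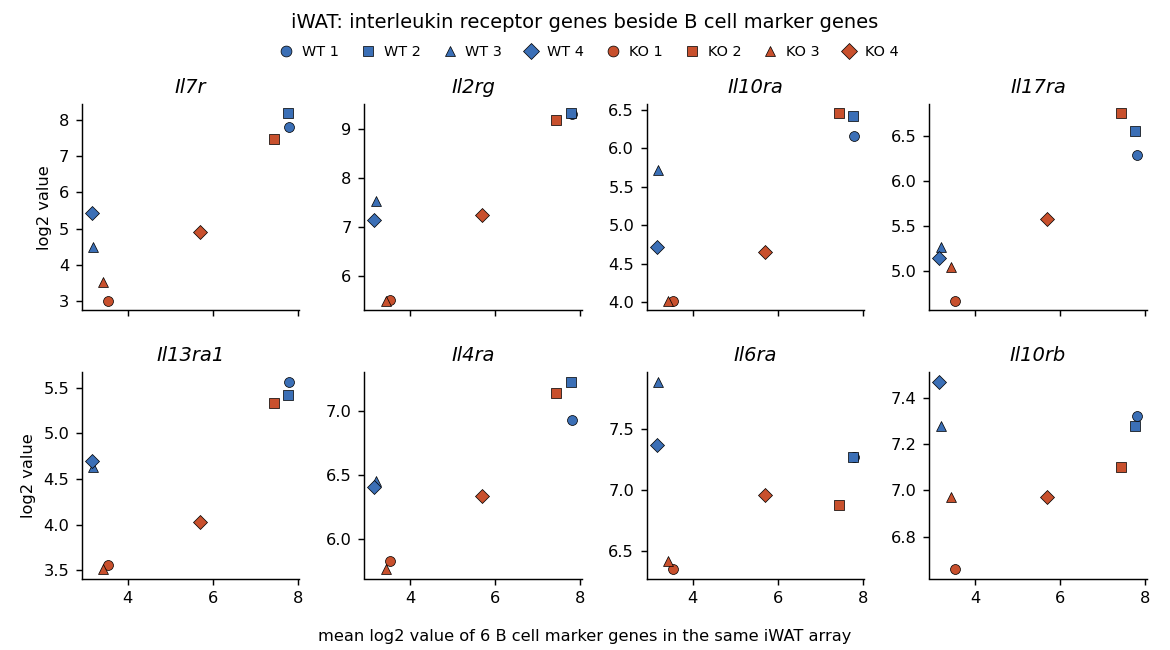
Log2 value of 8 interleukin receptor genes (y axes) against the mean log2 value of 6 B cell marker genes (x axis) on the 8 iWAT arrays, WT in blue and KO in red. For *Il7r*, *Il2rg*, *Il10ra*, *Il17ra*, *Il13ra1* and *Il4ra* the 3 arrays with a B cell mean of 7.43 or more have the highest values. For *Il6ra* and *Il10rb* all KO arrays are below all WT arrays, whatever the B cell mean.

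Among the members that were not dim in iWAT, 2 of 36 had no overlap between the groups (9.79% of all genes that were not dim), both lower in KO mice. *Il6ra* measured 7.27, 7.27, 7.89 and 7.37 on the WT arrays and 6.35, 6.88, 6.42 and 6.96 on the KO arrays (log2 fold change -0.80, standard error 0.19, adjusted p = 0.221, limma). *Il10rb* measured 7.32, 7.28, 7.28 and 7.47 against 6.66, 7.10, 6.97 and 6.97 (-0.41, adjusted p = 0.221, limma). Both fell past the threshold in eWAT. With the B cell mean as a covariate, 98 of all genes passed in iWAT and 0 members did, the smallest adjusted p of a member being 0.0855 for *Il13ra1* (log2 fold change -0.85, limma). Without the 3 arrays high in B cell genes, 78 of all genes and 0 members passed, with *Il13ra1* at -0.96 (adjusted p = 0.103), *Il6ra* at -1.05 (adjusted p = 0.140) and *Il7r* at -1.16 (adjusted p = 0.386, limma).

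In BAT no member passed either. Of the 26 that were not dim, 4 had no overlap between the groups (10.3% of all genes that were not dim), *Il15* higher and *Il15ra*, *Il17rc* and *Il10rb* lower in KO mice. *Il17rc*, a subunit of the IL-17A and IL-17F receptor, measured 5.27, 5.4, 5.21 and 5.31 on the WT arrays and 4.94, 5.12, 4.44 and 5.02 on the KO arrays (log2 fold change -0.42, adjusted p = 0.243, limma). *Il10rb* measured 6.94, 6.90, 6.77 and 7.08 against 6.74, 6.32, 6.74 and 6.69 (-0.30, adjusted p = 0.305, limma). *Il1r1* was between 5.14 and 5.60 in WT and measured 4.40, 5.46, 4.72 and 4.78 in KO mice (-0.60, adjusted p = 0.246, limma), where KO 2, an array high in muscle genes, was the one KO value within the WT range. *Il1rn*, which fell in eWAT, was between 3.04 and 3.45 in WT and between 3.43 and 3.57 in KO mice (0.28, adjusted p = 0.285, limma). The mean of the 4 brown adipocyte genes also separated the groups in BAT, at 8.41 to 8.72 in WT and 7.67 to 8.07 in KO mice with 0 of 4 genes past the threshold, and its part in these values was not tested. The median over the members that were not dim was -0.12, against -0.05 over all genes that were not dim.

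In liver the member past the threshold was *Il18bp*, the secreted protein that binds IL-18 and keeps it from its receptor. It measured 5.13, 5.13, 5.10 and 5.16 on the WT arrays and 4.34, 4.83, 4.67 and 4.44 on the KO arrays, so that the groups were apart and the WT livers were within 0.05 of each other. Its log2 fold change was -0.56 ± 0.10 (SE, adjusted p = 0.0387, limma), or 1.48-fold lower. It lost its call when any 1 array other than KO 2 was left out (adjusted p between 0.0576 and 0.123, limma) and with the replicate number as a block (0.0579). *Il18* itself was between 5.13 and 5.75 in WT and between 5.61 and 5.86 in KO livers (log2 fold change 0.27, adjusted p = 0.363, limma).

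In the same livers 3 of 4 endothelial genes fell past the threshold (list mean 4.95 to 5.18 in WT, and 3.94, 4.64, 4.03 and 4.14 on KO 1 to KO 4), and the macrophage list was between 4.67 and 5.19 in WT and between 3.84 and 4.81 in KO mice with 0 of 7 genes past it. KO 2 was the highest KO array for both lists and for *Il18bp*, and the part of these cells was not tested. Of the 31 members that were not dim in liver, 3 had no overlap (11.3% of all genes that were not dim). Besides *Il18bp* these were *Il6st*, at 7.94, 8.10, 7.96 and 7.96 in WT and 7.72, 7.81, 7.71 and 7.58 in KO livers (-0.28, adjusted p = 0.132, limma), and *Il17c*, an epithelial IL-17 family ligand, at 2.88 to 3.09 in WT and 3.10 to 3.35 in KO livers (0.22, adjusted p = 0.291, limma). *Il6ra* had a log2 fold change of -0.01 in liver and *Il1r1* one of -0.47 (adjusted p = 0.234, limma), with overlapping groups.

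The ligands best known from inflamed fat were at the low end of these arrays. *Il6* was dim in every tissue, between 1.18 and 1.93 on all 32 arrays, with log2 fold changes from -0.02 to 0.04. *Il10* was dim too, between 1.80 and 2.73, with log2 fold changes from -0.12 to 0.10. *Il1b* was above the median gene in liver and BAT, where its groups overlapped (log2 fold change -0.54 in liver with an adjusted p of 0.447, and -0.16 in BAT with 0.900, limma). *Il34*, the second ligand of the receptor *Csf1r* and known from neurons and skin, had log2 fold changes between -0.01 and 0.16, *Il16*, which T cells release, between -0.09 and 0.08, and *Il17ra*, the shared receptor chain of the IL-17 family, between -0.31 and -0.01, none past the threshold.

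The genes that signal with these receptors but carry other names were taken as a list of 44 (partner chains and ligands, JAK kinases and STATs, feedback inhibitors, and IL-1 and IL-18 signalling). In eWAT 14 of the 44 were lower and 1 higher past the threshold, with a median log2 fold change of -0.13 (0.03 over all genes). The 14 are 31.8% of the list, of which 35 genes were not dim, where 10.7% of all genes and 20.1% of those not dim passed as lower. In the other tissues 0 passed (limma, with 11 at an unadjusted p below 0.05 in liver, 12 in iWAT and 8 in BAT). Of all genes 0.661% passed in liver, 0% in iWAT and 0.0284% in BAT. An unadjusted p below 0.05 was found for 3271, 3803 and 3127 of all 24646 genes in these tissues (limma). The largest falls in eWAT were *Casp1*, the protease that activates IL-1β and IL-18 (-1.85, adjusted p = 0.0157), *Csf1r*, the receptor of CSF1 and IL-34 on macrophages (-1.56, 0.0191), *Ptpn6*, a phosphatase of blood cells that restrains receptor signalling (-1.51, 0.0197), *Csf2rb2*, the IL-3-specific common beta chain of mice (-1.15, 0.0107), *Crlf2*, which pairs with *Il7r* to bind TSLP (-0.86, 0.0156), and *Osmr*, the oncostatin M partner of gp130 (-0.82, 0.0123, all limma). *Casp1* measured 7.27, 7.48, 7.51 and 7.47 on the WT arrays and 4.91, 6.90, 5.66 and 4.85 on the KO arrays, with KO 2 again the highest of the KO values. By group, 6 of 13 partner chains and ligands, 2 of 11 kinases and STATs, 1 of 7 feedback inhibitors and 5 of 13 genes of IL-1 and IL-18 signalling were lower. The gene that rose was *Stat5a* (0.37, adjusted p = 0.0299, limma), named here after its value was seen because it stood alone. In iWAT its log2 fold change was also 0.37, with every KO value above every WT value, but it did not pass (adjusted p = 0.221, limma). It was 0.06 in liver and -0.17 in BAT, with overlapping groups.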

How the data were processed

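Liver, eWAT, iWAT and BAT from 4 KO and 4 WT mice each were run on Affymetrix Mouse Gene 2.1 ST arrays, with biotin-labelled target made from 100 ng RNA per sample. The authors deposited log2 values, 1 per gene symbol and array, normalized within each tissue. The software, the way probes were summarised and the normalization are not given in the sources used here. Entries with a blank name or a name turned into a number were left out, which left 24646 genes per table. For 840 genes the deposited identifiers are not whole numbers, so that several probe sets had been averaged. Averages that come to a whole number would not be among these 840. Of the members, 81 matched RefSeq (GRCm38.p6) by symbol and 3 by an older symbol.

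Genotypes were compared per tissue with limma 3.58.1 in R 4.3.3 (lmFit, eBayes), a procedure tested on simulated data with the same spread in both genotypes. Unequal spread, such as that of *Casp1* in eWAT (SD 0.11 in WT and 0.95 in KO mice), was not simulated. The number of arrays limits the precision. Differences between tissues were fitted with the mouse as a random block (duplicateCorrelation, correlation 0.010 with liver, 0.084 with iWAT and 0.054 with BAT), taking a number to name the same mouse in each tissue, which the labels do not state.

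Genes named are the members past the threshold, the 6 largest changes per tissue among members that were not dim and whose groups did not overlap, a list of 23 members in every tissue, and up to 6 other pathway genes past the threshold. The members, the lists of pathway and marker genes and this rule were chosen with earlier results of these data known. The alternatives were quantile normalization, equal array medians, array weights, a prior both trended and robust, no dim genes, the replicate number as a block, a plain t-test, and each array left out in turn. Fits for the iWAT arrays high in B cell genes (mean of at least 7) and the BAT arrays high in muscle genes (mean of at least 6) were added after seeing the data.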

Additional observations from a re-analysis of the deposited data

Results flagged for a closer look

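On single arrays, 16 values stood apart from the other 3 of their group by more than Dixon's limit for 4 samples, among 192 groups of 4 examined, where chance alone marks about 1 group in 20. On eWAT KO 2 these were *Il1rn* at 4.72 (others 3.23 to 3.45) and *Il18* at 4.99 (4.48 to 4.52). In WT eWAT they were *Il10ra* at 6.23 on WT 3 (5.79 to 5.82), *Il13ra1* at 5.80 on WT 2 (5.54 to 5.56) and *Il18* at 5.61 on WT 1 (5.01 to 5.09). In iWAT they were *Il33* at 4.53 on KO 2 (3.71 to 3.75), *Il1b* at 4.26 on WT 3 (2.98 to 3.09) and *Il6ra* at 7.89 on WT 3 (7.27 to 7.37). In BAT they were *Il10rb* at 6.32 on KO 2 (6.69 to 6.74), *Il15ra* at 6.47 on KO 2 (6.97 to 7.07), *Il17ra* at 3.38 on WT 3 (3.47 to 3.48), *Il6ra* at 5.75 on WT 2 (5.43 to 5.48) and the dim *Il6* at 1.66 on KO 3 (1.26 to 1.33). In liver they were *Il6st* at 8.10 on WT 2 (7.94 to 7.96), the dim *Il10* at 1.80 on WT 2 (1.88 to 1.89) and the dim *Il6* at 1.54 on KO 1 (1.22 to 1.27).

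The change with genotype differed between eWAT and another tissue for 18 pairs of gene and tissue by the test of the difference itself (limma, adjusted p below 0.05). Against liver the differences of the log2 fold changes were -3.44 for *Il7r*, -1.62 for *Il1rn*, -1.59 for *Il13ra1*, -1.26 for *Il1rl1*, -1.15 for *Il1rl2*, -0.87 for *Il33*, -0.84 for *Il18*, -0.74 for *Il27ra*, -0.62 for *Il15* and -0.60 for *Il6ra*. Against BAT they were -3.15 for *Il7r*, -2.14 for *Il1rn*, -1.50 for *Il13ra1*, -1.29 for *Il1rl1*, -1.25 for *Il15*, -0.88 for *Il27ra*, -0.83 for *Il33* and 1.63 for *Il15ra*.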

How the results depend on the processing

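In eWAT the count of 13 members became 20 with array weights, and all 13 were among the 20, while the share of all genes went from 15.2% to 21.5%. It stayed between 13 and 15 with quantile normalization, equal array medians, dim genes left out, a trended and robust prior and the replicate block. Of all genes, 15.2% passed with quantile normalization, 14.7% with equal array medians, 14.7% with the trended and robust prior and 13.8% with the replicate block. With dim genes left out, 31.1% of the genes tested passed, and 15 of the 34 members that were not dim. With quantile normalization 11 of the 13 were shared, *Il18* (adjusted p = 0.0902, limma) and *Il1rl2* (0.0539) being lost and *Il12rb2* and *Il15ra* gained. Under the replicate block the count was 13, of which 12 were shared, *Il18* being lost and *Il15ra* gained. A plain t-test gave 0 members after adjustment, when 0.154% of all genes passed, and 22 before it. Leaving out 1 array gave between 8 and 21 members, and between 5.88% and 22.0% of all genes. In liver the count of 1 became 0 with the replicate block, 0 with the adjusted t-test and 9 with the unadjusted one, and between 0 and 2 when 1 array was left out, the 2 being *Il18bp* and *Il2rg* without KO 2. In iWAT and BAT the count was 0 in every fit except the unadjusted t-test, which gave 7 in iWAT and 9 in BAT. The shares of all genes under the unadjusted t-test were not counted in any tissue. Its counts therefore cannot be read as particular to the members. Members whose change differed between eWAT and liver numbered 10, and 7 to 17 with 1 array left out. Against BAT they numbered 8, and 7 to 17, and against iWAT 0, and 0 to 3, and in each case the highest count came without eWAT KO 2. The shares of all genes in these fits with 1 array left out were not counted. Without the block on the mouse the counts were 10, 7 and 0. No log2 fold change of a named gene past the threshold changed sign in any fit. KO and WT arrays of one number correlated in their deviations between -0.38 and 0.67 in iWAT, so that the numbers were not taken as pairs. The number of arrays, and signals near the low end for most ligands, limit what could be seen.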
